A study of Arabidopsis thaliana with 48 samples.

Results

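The CIN-type TCP genes of Arabidopsis thaliana are 8 transcription factor genes, TCP2, TCP3, TCP4, TCP10 and TCP24, which microRNA miR319 targets, and TCP5, TCP13 and TCP17, the TCP5 clade. They were taken by their gene identifiers, without regard to case, from a count table of 23069 genes, and all 8 were found. All 8 also passed the filter on low counts that left 19747 genes to test. The samples were inflorescences of one line in the Col-0 background, pAP1:AP1-GR ap1 cal, collected at days 0, 1, 2, 3, 4 and 5 of dexamethasone treatment, with 4 biological replicates a day and 24 samples in all.

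Every sample, day 0 included, carried the ap1 and cal mutations and the transgene, in which the AP1 promoter drives AP1 fused to the hormone-binding part of the glucocorticoid receptor. Without AP1 and CAL these plants keep forming meristems in place of flowers, as a cauliflower-like mass. Dexamethasone lets the fusion protein act, so that flowers start to form at about the same time, and day 0 is the state before induction. No samples without dexamethasone at the later days and no wild-type samples were analysed here, so induction, age of the tissue and daily treatment cannot be told apart. PolyA RNA was sequenced, and the 2 sequencing runs of each sample were summed, which gave 26.56 × 10⁶ to 27.98 × 10⁶ counts a sample.

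TCP proteins are plant transcription factors that bind DNA through a domain shared across the family. The CIN type is named after CINCINNATA of snapdragon, whose loss leaves cells dividing for too long at the leaf margin. In Arabidopsis leaves and petals, CIN-type TCPs restrain proliferation and promote differentiation, and miR319 limits where the targeted members act by directing cleavage of their transcripts. TCP5, TCP13 and TCP17 are not targets of miR319 and are known for restraining petal growth.

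The miRNAs and their matching stretches show what divides the family, and were read from RefSeq's TAIR10.1 genome and annotation. Mature miR319a (chr4:12353109-12353129, plus strand) and miR319b (chr5:16660469-16660489, minus strand) have the same sequence, and miR319c (chr2:17029870-17029890, plus strand) differs near its 3′ end. Capitals in the miRNAs mark the seed, bases 2 to 8. The other lines give, 5′ to 3′ along the mRNA, the 21 bases of each gene that pair best with miR319a, and capitals there mark each base that does not form a Watson-Crick pair with it.
miR319a and miR319b: uUGGACUGaagggagcucccu
miR319c: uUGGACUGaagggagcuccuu
TCP2: CAggGgGAcccuucaguccaa
TCP3: GAggGgUCcccuucaguccaU
TCP4: GAggGgUCcccuucaguccaG
TCP10: aAggGgUAcccuucaguccaG
TCP24: UAggGgGAcccuucaguccaa
TCP5: CAUAaAUuccUuucaUAccGa
TCP13: aAUCGgAuGUcGucGguccaa
TCP17: agggagAuUUAuAUGguUUaa

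All 5 targeted genes share the run cccuucagucca, which pairs base for base with the 5′ part of the miRNA, seed included. Each site lies in coding sequence within a single exon. The TCP2 site is at chr4:10163402-10163422 and the TCP10 site at chr2:13221210-13221230, both on the minus strand. The TCP3 site is at chr1:19850522-19850542 and the TCP24 site at chr1:10628989-10629009, also on the minus strand. The TCP4 site is at chr3:5063300-5063320 on the plus strand. With 1 point for a mismatch and 0.5 for a G:U pair, the 5 sites scored 3.5 for TCP10, 4.0 for TCP4 and 4.5 for TCP2, TCP3 and TCP24. Of 21838 genes whose transcripts were scanned, 60 scored 4.5 or less, led by MYB65 and MYB33, targets of the related miR159, at 3.0. The best stretches of the TCP5 clade scored 8.5 for TCP5, 7.5 for TCP13 and 6.0 for TCP17, and those of TCP5 and TCP17 were not wholly coding.

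Levels are given in CPM, counts per 10⁶ counts of a library size adjusted by trimmed-mean (TMM) scaling. Differences between days were tested with edgeR's quasi-likelihood test across all 19747 genes, with Benjamini-Hochberg adjustment, and a gene was called at adjusted p under 0.05. Comparisons against day 0 share the day 0 samples. In whole inflorescences, a lower level can mean fewer cells of a type or less RNA per cell, and these cannot be told apart.

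Marker genes of the tissue changed over the days. AP1 itself, whose counts in this line may hold transcripts of both the transgene and the mutant gene, averaged 296 ± 33.9 CPM at day 5 and 184 ± 19.6 CPM at day 0 (SD, n = 4 each). At day 5 against day 0, 24.3% of all tested genes rose and 22.9% fell. Of 4 floral organ genes, all 4 rose in this comparison. Among them AP3 averaged 179 ± 6.09 CPM at day 5 and 8.74 ± 2.41 CPM at day 0 (SD, n = 4 each). Of 6 meristem genes, 5 fell at day 5, among them STM, with 69.3 ± 11.1 CPM at day 5 and 159 ± 7.08 CPM at day 0, while LFY rose. Green-tissue markers, 5 genes, summed to 2779 to 4021 CPM at day 5 and 5115 to 7143 CPM at day 0, and 4 of the 5 fell. At day 1 the sum was 3758 to 4941 CPM and 3 had fallen, where 5.85% of all tested genes fell. Tapetum markers, 7 genes of the layer that feeds pollen, summed to 4.27 to 9.90 CPM in 20 libraries, but to 27.6 CPM in day 1 replicate 3, 24.5 CPM in day 2 replicate 4, 68.8 CPM in day 3 replicate 4 and 55.8 CPM in day 5 replicate 4. Of these markers MS1 and ATA7 were at 0 in all 4 day 0 samples. The part of green tissue and of tapetum in the results below was not tested, and the main counts of members called are given with those 4 libraries left out as well, a setting chosen after seeing the data. On the third principal component, which held 8.25% of the variance, day 3 replicate 4 (-43.9) and day 5 replicate 1 (51.7) lay at the ends.

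Over the 6 days, all 8 members changed, where 48.9% of all tested genes did. The smallest adjusted p, 6.32e-12, was that of TCP13, and the largest, 0.00538, that of TCP24, whose call was lost without replicate 2 and without replicate 3 of every day (adjusted p up to 0.113). The 5 miR319 targets summed to 112 ± 11.1 CPM at day 0, 86.9 ± 3.09 at day 1, 83.7 ± 4.88 at day 2, 115 ± 21.2 at day 3, 174 ± 7.19 at day 4 and 220.0 ± 36.5 at day 5 (SD, n = 4 each). The TCP5 clade summed to 8.62 ± 0.792 CPM at day 0, 5.26 ± 1.17 at day 1, 3.74 ± 0.521 at day 2, 5.09 ± 0.188 at day 3, 10.3 ± 0.719 at day 4 and 18.3 ± 2.95 at day 5. Day 2 was the lowest and day 5 the highest mean in both sums. In means, 5 members were lowest at day 2, 2 at day 1 and 1 (TCP17) at day 3. The test did not separate these days: no member was called between day 2 and day 1, nor TCP17 between day 3 and day 2. The mean of 7 members was highest at day 5, while that of TCP17 was highest at day 0.

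**Figure D1:**
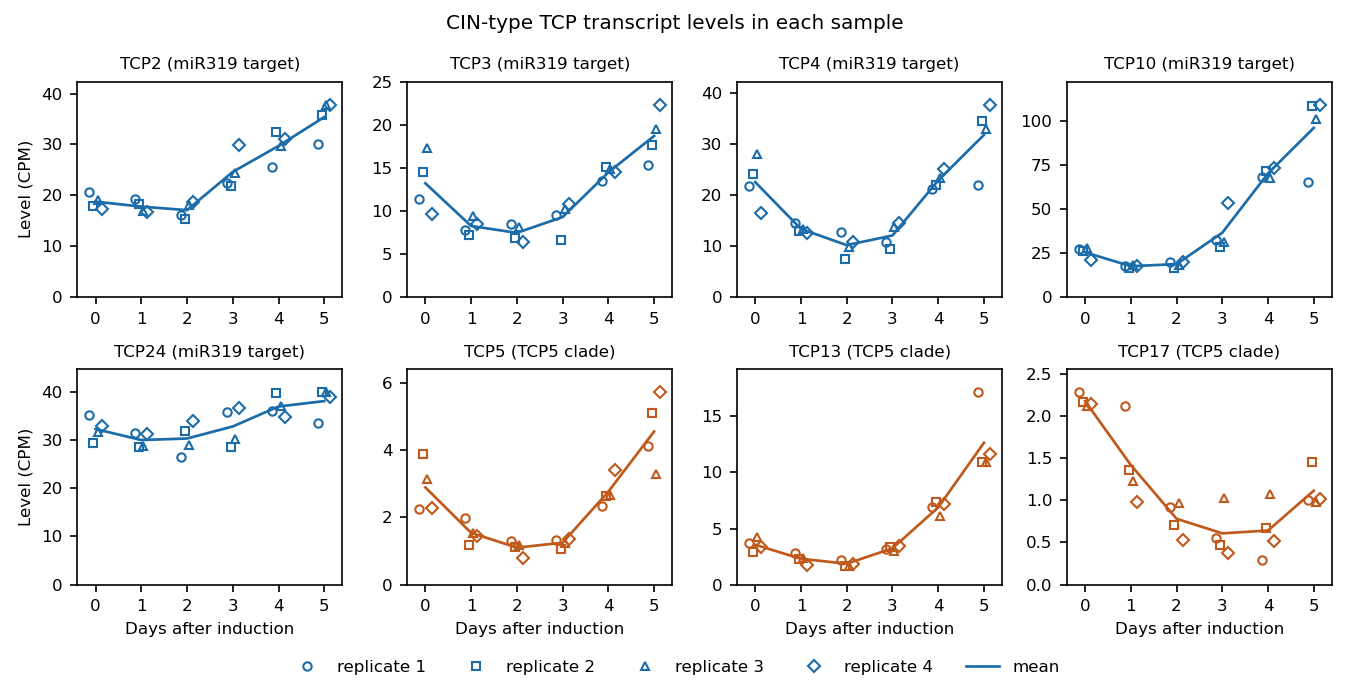
Level of each CIN-type TCP gene (CPM, linear axis from 0, a scale of its own in each panel) in every sample against days after induction. Symbols mark the 4 replicates and lines join the day means. The means of TCP2, TCP3, TCP4, TCP5 and TCP13 are lowest at day 2, and those of TCP10 and TCP24 at day 1. All 7 of these genes have their highest mean at day 5, though TCP24 moves little. TCP17 is highest at day 0 and ends below it.

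TCP4, TCP3 and TCP5 fell at day 1, were still lower at day 3 and ended above day 0, though these last calls were lost with the tapetum-high libraries left out. TCP4 (AT3G15030, chr3:5061681-5064152), the best studied miR319 target in leaves and flowers, had 14.5, 13.1, 13.3 and 12.6 CPM at day 1, against 21.7, 24.1, 28.02 and 16.4 CPM at day 0. Every day 1 sample lay below every day 0 sample. The log2 change was -0.75 (SE 0.17, adjusted p = 0.00694), and at day 2, with 12.7, 7.41, 9.84 and 10.8 CPM, it was -1.15 (SE 0.18, adjusted p = 4.89e-05). TCP4 then rose within a day, with 22.9 ± 1.69 CPM at day 4 and 12.1 ± 2.37 CPM at day 3 (SD, n = 4 each, log2 change 0.92, SE 0.17, adjusted p = 0.00612). At day 5 it had 21.9, 34.6, 33.1 and 37.8 CPM, 0.50 above day 0 on the log2 scale (SE 0.17, adjusted p = 0.0186). The day 5 and day 0 samples overlapped, with day 5 replicate 1 lowest of its day.

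TCP3 (AT1G53230, chr1:19849788-19851725), the gene closest to TCP4 in sequence, had 7.81, 7.24, 9.46 and 8.53 CPM at day 1, against 11.4, 14.6, 17.4 and 9.62 CPM at day 0. The day 1 samples all lay below the day 0 samples, by a narrow margin at the edge (log2 change -0.68, SE 0.16, adjusted p = 0.0097). Its mean was lowest at day 2, 7.46 ± 1.03 CPM, and highest at day 5, 18.7 ± 2.97 CPM (SD, n = 4 each). At day 5 it had 15.3, 17.7, 19.5 and 22.4 CPM, 0.50 above day 0 on the log2 scale (SE 0.16, adjusted p = 0.0122), with groups that overlapped. At day 3 it had 9.51, 6.67, 10.2 and 10.8 CPM, which overlapped day 0 (log2 change -0.51, SE 0.16, adjusted p = 0.0212), and that call was lost in 5 of 21 other settings, among them leaving out day 0 replicate 2, day 0 replicate 3 or day 3 replicate 2 alone. An antisense noncoding gene, AT1G53233, overlaps TCP3, and no source used here says whether the counting used strand; AT1G53233 itself had 0 to 6 counts a sample.

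TCP5 (AT5G60970, chr5:24535337-24537244), which names the clade, followed the same course at a lower level, 1.72 ± 0.468 RPKM at day 0 where TCP4 had 9.44 ± 2.03 RPKM (SD, n = 4 each). It had 1.98, 1.18, 1.55 and 1.45 CPM at day 1, against 2.25, 3.89, 3.13 and 2.29 CPM at day 0. No day 1 sample reached the lowest day 0 sample (log2 change -0.90, SE 0.21, adjusted p = 0.00856). At day 2 the mean was 1.10 ± 0.225 CPM (SD, n = 4) and the log2 change was -1.39 (SE 0.22, adjusted p = 6.99e-05). By day 5 it had 4.10, 5.08, 3.29 and 5.72 CPM, a log2 change of 0.66 (SE 0.20, adjusted p = 0.0104), and the lowest day 5 sample lay among those of day 0.

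TCP10 and TCP13, of different clades, had the largest log2 changes of the 8 at day 5 against day 0. TCP10 (AT2G31070, chr2:13220478-13222642), a miR319 target with a site scoring best of the 5, had 65.2, 108.5, 101 and 109 CPM at day 5, against 26.9, 25.8, 27.6 and 21.1 CPM at day 0. The groups were far apart, and day 5 replicate 1 was far below the other 3. The log2 change was 1.92 (SE 0.16, adjusted p = 2.68e-09), or 3.78-fold. Before that rise, TCP10 was lower at day 1, with 17.9, 16.2, 18.2 and 17.6 CPM (log2 change -0.54, SE 0.16, adjusted p = 0.0383). This early drop lost its call in 12 of 21 other settings, with adjusted p from 0.0139 to 0.24. From day 2 to day 4 the mean went up at each step, with 18.7 ± 1.71 CPM at day 2, 36.5 ± 11.4 at day 3 and 70.1 ± 2.58 at day 4 (SD, n = 4 each), and both steps were called (log2 change 0.97, SE 0.16, adjusted p = 0.00394, and log2 change 0.94, SE 0.16, adjusted p = 0.00226).

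Day 3 replicate 4 bore on the middle of this course. TCP10 had 53.4 CPM there, against 28.6 to 32.5 CPM in the other 3 day 3 samples, or 1.73 times their mean. The other members were at 0.548 (TCP17) to 1.31 (TCP2) of the mean of those 3 samples. How many of all tested genes stood apart in that library was not counted. TCP10 was called higher at day 3 than at day 0 (log2 change 0.52, SE 0.16, adjusted p = 0.0161), but without that library the change was 0.28 (adjusted p = 0.115). The call was also lost without day 0 replicate 4. The summed tapetum level of 68.8 CPM stands beside these values.

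TCP13 (AT3G02150, chr3:390720-392767), of the TCP5 clade, had 17.2, 10.9, 10.9 and 11.6 CPM at day 5, against 3.70, 2.91, 4.28 and 3.32 CPM at day 0. No day 5 sample came near those of day 0, and here day 5 replicate 1 was the highest of its day (log2 change 1.83, SE 0.15, adjusted p = 2.62e-09; 3.56-fold, and 1.65 in log2 without that sample). At day 2 TCP13 had 2.19, 1.69, 1.69 and 1.88 CPM, below all day 0 samples (log2 change -0.93, SE 0.17, adjusted p = 0.00024). It then rose on each following day, with 3.24 ± 0.189 CPM at day 3, 6.88 ± 0.557 at day 4 and 12.7 ± 3.03 at day 5 (SD, n = 4 each). These steps had log2 changes of 0.80 (SE 0.17, adjusted p = 0.0222), 1.09 (SE 0.15, adjusted p = 0.000783) and 0.88 (SE 0.15, adjusted p = 0.000743). Of these steps, the one to day 3 lost its call in 11 of 20 other settings.

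TCP2 (AT4G18390, chr4:10162922-10165583) rose late with no dip that passed the test. It had 30.1, 35.9, 37.8 and 37.8 CPM at day 5, against 20.7, 17.9, 19.1 and 17.3 CPM at day 0. Every day 5 sample lay above every day 0 sample (log2 change 0.92, SE 0.10, adjusted p = 1.49e-07). At day 1 its mean was 17.8 ± 1.19 CPM against 18.8 ± 1.53 CPM at day 0 (SD, n = 4 each), a log2 change of -0.08 (SE 0.10, adjusted p = 0.674). The first called rise was at day 3, with 24.6 ± 3.69 CPM (log2 change 0.39, SE 0.10, adjusted p = 0.00502).

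TCP24 (AT1G30210, chr1:10627185-10630630) had the highest level per length of the 8 at day 0, 19.0 RPKM, and the smallest log2 change at day 5. It had 33.5, 40.0, 40.0 and 39.0 CPM at day 5, against 35.2, 29.5, 31.7 and 33.0 CPM at day 0. The groups overlapped through day 5 replicate 1 and day 0 replicate 1, and the log2 change was 0.24 (SE 0.09, adjusted p = 0.0268). That call was lost in 9 of 21 other settings, with adjusted p from 0.00426 to 0.176. No pair of days that neighboured each other in the order of its levels differed by the test.

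TCP17 (AT5G08070, chr5:2584358-2586035), of the TCP5 clade, was lower than at day 0 on days 2 to 5, and was the one member called lower at days 4 and 5. It had 1.007, 1.45, 0.982 and 1.015 CPM at day 5, against 2.28, 2.16, 2.12 and 2.14 CPM at day 0, or 26 to 38 counts a sample at day 5 and 55 to 61 at day 0. The 4 day 0 samples lay close together and above every sample of days 1 to 5. The margin to day 1 was very narrow, with 2.118 CPM (61 counts) in day 1 replicate 1 and 2.123 CPM (55 counts) in the lowest day 0 sample. Its log2 change was -0.61 at day 1 (SE 0.30, adjusted p = 0.197), -1.48 at day 2 (SE 0.31, adjusted p = 0.00127), -1.83 at day 3 (SE 0.32, adjusted p = 0.000135), -1.76 at day 4 (SE 0.32, adjusted p = 0.000158) and -0.96 at day 5 (SE 0.30, adjusted p = 0.012). The mean was higher at day 5 than at day 3, 1.11 ± 0.226 CPM against 0.607 ± 0.29 CPM (SD, n = 4 each), a log2 change of 0.87 that was not called (SE 0.33, adjusted p = 0.072).

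**Figure D2:**
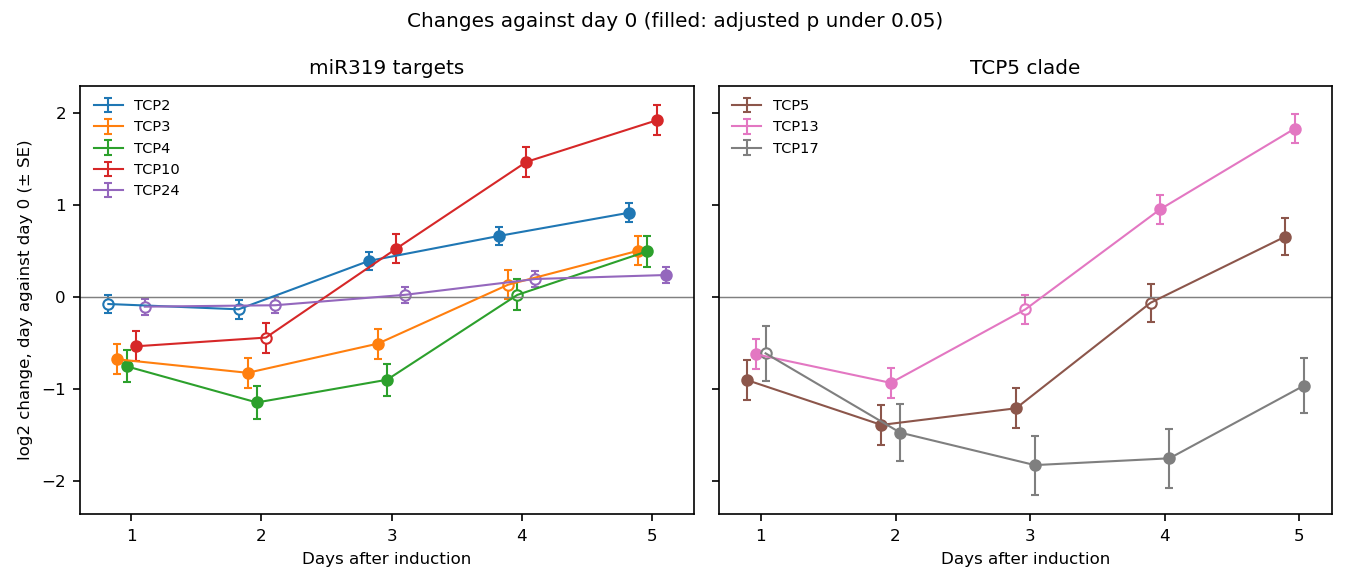
Log2 change of each member at days 1 to 5 against day 0, with standard errors, for the 5 miR319 targets (left) and the TCP5 clade (right). Filled symbols have an adjusted p under 0.05; at day 5, TCP10 at 1.92 and TCP13 at 1.83 are highest and TCP17 at -0.96 is the only one below 0.

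Counted by comparison, 5 of 8 members fell at day 1 against day 0 (TCP3, TCP4, TCP10, TCP5 and TCP13) and none rose, where 5.85% of all tested genes fell and 10.1% changed either way. Their median log2 change was -0.62, against -0.0018 over all tested genes. All 5 also fell with the 4 tapetum-high libraries left out, but no member was called without replicate 2, or without replicate 3, of every day. Without replicate 2 of every day, 337 of all tested genes were called, against 1986 with it. With library totals in place of TMM, 4 members fell, and the share of all calls that were rises was 64.9%, against 41.8% with TMM.

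At day 2 against day 0, 5 members fell (TCP3, TCP4, TCP5, TCP13 and TCP17), where 12.4% of tested genes fell and 23.7% changed, and 6 fell with the tapetum-high libraries left out. Between day 2 and day 1 edgeR called none of the 8, where it called 1.9% of all tested genes; 3 had an unadjusted p under 0.05 (TCP4, TCP5 and TCP17, all lower at day 2) and DESeq2 called 0. At day 3 against day 0 the family was split, with TCP10 and TCP2 higher and TCP3, TCP4, TCP5 and TCP17 lower, where 29.1% of tested genes changed. With the tapetum-high libraries left out, 1 was higher (TCP2) and 4 were lower. At day 4 against day 0, TCP10, TCP13 and TCP2 were higher and TCP17 lower, where 35.3% changed.

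From day 2 on, each called change of a member against the day before was a rise. At day 3 against day 2, TCP10, TCP13 and TCP2 rose, where 0.694% of all tested genes rose and 0.871% changed, but 1 of the 3 rose with the tapetum-high libraries left out. At day 4 against day 3, TCP3, TCP4, TCP10, TCP5 and TCP13 rose, where 0.962% rose and 1.45% changed. The call of TCP3 (log2 change 0.64, SE 0.16, adjusted p = 0.0473) was lost in 13 of 21 other settings, among them no filter, batch 1 alone and leaving out any one of 7 libraries. Also 5 members rose in that step without the tapetum-high libraries, and 1 without replicate 2 of every day. At day 5 against day 4, TCP5 and TCP13 rose, where 7.75% rose and 12.2% changed. The call of TCP5 was lost in 11 of 20 other settings, while 5 members rose without day 5 replicate 1 and 1 without the tapetum-high libraries.

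At day 5 against day 0, 7 members rose and TCP17 fell, where 24.3% of tested genes rose, 22.9% fell and 47.2% changed. The median log2 change of the 8 was 0.58, against -0.0112 over all tested genes. With the tapetum-high libraries left out, 4 rose (TCP2, TCP10, TCP13 and TCP24) and TCP17 fell; TCP3, TCP4 and TCP5 kept log2 changes of 0.41, 0.40 and 0.53, with adjusted p of 0.0526, 0.0843 and 0.0514. Leaving out day 5 replicate 4 alone also gave 4 rises, and leaving out replicate 4 of every day gave 3 (TCP2, TCP10 and TCP13). At day 5 against day 1, the lower starting point, 7 rose, where 21.9% of tested genes rose and 40.7% changed, with log2 changes from 0.34 for TCP24 to 2.46 for TCP10, and TCP17 was not called (-0.35, SE 0.31, adjusted p = 0.386). Within each sequencing batch, the log2 change at day 5 against day 0 was 1.87 and 1.95 for TCP10, 1.81 and 1.84 for TCP13, 0.61 and 0.44 for TCP4, and -1.23 and -0.82 for TCP17, in batch 1 and batch 2.

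The share of each member in the family's transcripts is given as a description, with no test of the shares. Levels per transcript length (RPKM, CPM per kilobase of the longest annotated transcript) allow the genes to be compared with each other. TCP10 held 38.4% ± 3.70 of the summed RPKM of the 8 at day 5 and 19.8% ± 0.782 at day 0 (SD, n = 4 each). TCP24 held 18.4% ± 1.32 at day 5 and 30.2% ± 3.71 at day 0, so it ranked above TCP10 at day 0 and below it at day 5. TCP4 held 14.8% ± 2.08 at day 0, 7.97% ± 0.995 at day 3 and 10.8% ± 0.99 at day 5. The TCP5 clade was the minor part throughout: TCP13, its most abundant member at day 5, held 5.99% ± 2.497 at day 5 and 3.12% ± 0.384 at day 0, and TCP17 held 0.69% ± 0.136 at day 5 and 2.60% ± 0.237 at day 0.

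**Figure D3:**
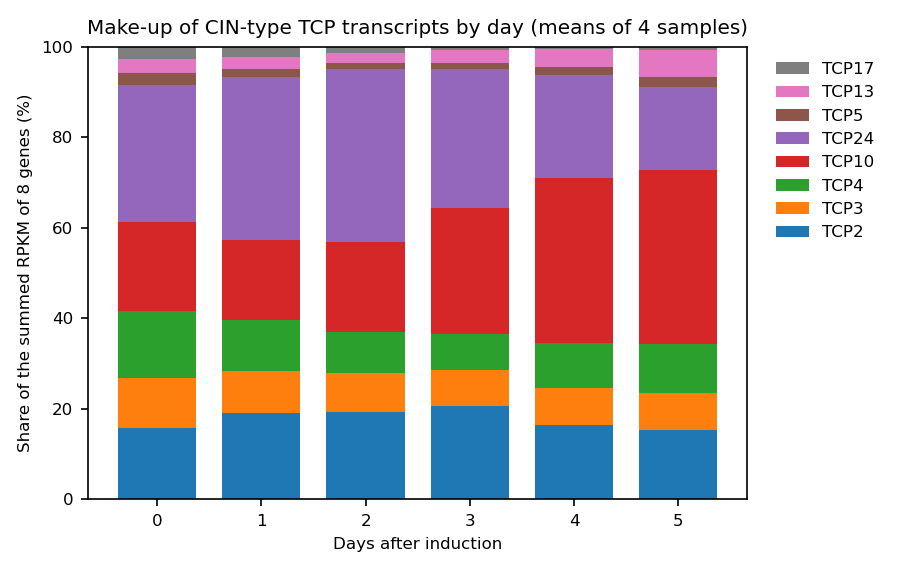
Mean share of each member in the summed RPKM of the 8 genes (stacked to 100%) by day after induction, 4 samples a day. TCP10 widens to 38.4% at day 5 and TCP24 narrows to 18.4%.

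Whether pairs of members changed unequally was tested on the log2 ratio within each sample, over 28 pairs and the comparisons of day 1 and of day 5 with day 0, 56 tests in all. With 4 samples against 4, the smallest two-sided exact permutation p is 0.0286, which 8 pairs reached at day 1 and 18 at day 5. After Benjamini-Hochberg adjustment over the 56 tests these stood at 0.0615, so no pair passed 0.05. The 28 pairs reuse the same 8 genes. How often pairs of other genes reach the smallest p, with groups that do not overlap, was not counted. With these group sizes a pair can pass only if most of the 56 tests reach the smallest p, so the missed threshold does not show that members changed alike. At day 5 against day 0, the TCP10 to TCP17 ratio was higher by 2.83 in log2, TCP13 to TCP17 by 2.74 and TCP10 to TCP24 by 1.66, and in these pairs the ratios of the 4 day 5 samples did not overlap those of the 4 day 0 samples. The TCP4 to TCP10 ratio was lower by 1.40, at -1.59 ± 0.0513 at day 5 and -0.19 ± 0.18 at day 0 (SD, n = 4 each). TCP3 to TCP4, in contrast, had a log2 ratio of -0.75 ± 0.182 at day 5 and -0.78 ± 0.107 at day 0, a difference of 0.03 (exact permutation p = 0.914).

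As a description over the 24 samples, which share days and libraries, log2 levels of the 21 pairs without TCP17 correlated with a Pearson r of 0.55 to 0.97. TCP2 and TCP10 (0.97), TCP3 and TCP4 (0.94), TCP4 and TCP5 (0.93) and TCP10 and TCP13 (0.92) were among the most alike pairs, the first 2 within the miR319 targets and the other 2 across the clades. Within the TCP5 clade, TCP5 and TCP13 had 0.83. The 7 pairs with TCP17 had r from -0.28 to 0.35. In deviations from day means, the most alike pairs were TCP4 and TCP10 (0.78), TCP2 and TCP10 (0.76) and TCP3 and TCP4 (0.75), all miR319 targets. Not every pair followed the clades. Across the clades, TCP3 and TCP5 had 0.59 and TCP4 and TCP5 had 0.44, while TCP10 and TCP13 had -0.13. Within the miR319 targets, TCP3 and TCP24 had 0.04 and TCP4 and TCP24 had 0.10. Sequences of 31 bases were taken at every position of the transcripts, so neighbouring ones overlap and are not separate stretches. TCP3 and TCP4 share 8 of these sequences, TCP3 and TCP10 share 1, and no other pair shares any. Reads from the shared bases of TCP3, TCP4 and TCP10 could have been split between them. TCP10 also shares 3 such sequences with AT5G25760. In day 5 replicate 1, TCP2, TCP3, TCP4, TCP10 and TCP24 lay below the other 3 samples of the day, at 0.615 to 0.845 of their mean. TCP13 lay above, at 1.54, and TCP5 and TCP17 lay within. How many of all tested genes stood apart in that library was not counted.

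Among 15226 genes with a mean of at least 5 CPM, those most like TCP10 over the 24 samples were CORI3 (Pearson r 0.98), known as induced by jasmonate, AT4G13540 (0.98) and AT1G05540 (0.97). CORI3 averaged 513 CPM at day 5 and 23.8 CPM at day 0, and it was also the gene most like TCP2 (0.98). For TCP4 they were AT1G69160 (0.97), TCP3 (0.94) and AT4G23670 (0.94), and for TCP3 they were AT4G25620 (0.96), AT5G56040 (0.95) and TCP4. TCP5 was most like CYP709B3 (0.94), AT4G25620 (0.93) and AT1G69160 (0.93), and TCP13 most like AT1G15260 (0.96), AT4G18970 (0.94) and AT5G41050 (0.94). TCP17 was most like GPRI1 (0.88), a regulator of chloroplast development, SDD1 (0.88), a protease that limits stomatal density, and iqd21 (0.88). TCP24 was most like AT2G27770 (0.88), TTL1 (0.86) and CYCD1;1 (0.86), a D-type cyclin. With TCP10, 149 genes had r above 0.9, and with TCP17 and TCP24 none did. TCP17 had only 8 to 61 counts a sample, and the highest day mean of TCP24 was 1.27 times its lowest. The part of low counts and of a small range in these values of r was not tested.

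Other branches of the TCP family give a setting for these changes. Class I TCPs, which mostly promote growth, number 13, of which 11 could be tested. At day 5 against day 0, 3 of them rose (TCP7, TCP14 and TCP20) and 1 fell (TCP19), with a median log2 change of 0.26, where 24.3% of all tested genes rose and 22.9% fell. TCP7 averaged 45.1 ± 8.21 CPM at day 5 and 27.4 ± 1.32 CPM at day 0 (SD, n = 4 each). At day 1 against day 0, 1 of the 11 fell, TCP9 (log2 change -0.77, SE 0.15, adjusted p = 0.00254), where 5.85% of all tested genes fell. The CYC/TB1 type, regulators of branching and of flower symmetry, had 2 of 3 members lower at day 5: TCP18, a repressor of axillary bud growth, had 6.79 ± 0.615 CPM at day 5 and 30.3 ± 2.96 CPM at day 0 (log2 change -2.16, SE 0.13, adjusted p = 1.60e-11), TCP1 changed by -1.36 (SE 0.14, adjusted p = 6.22e-08), and TCP12, at 0.293 ± 0.197 CPM at day 5 and 0.304 ± 0.0476 CPM at day 0, was not called (-0.05, SE 0.36, adjusted p = 0.916).

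**Figure D4:**
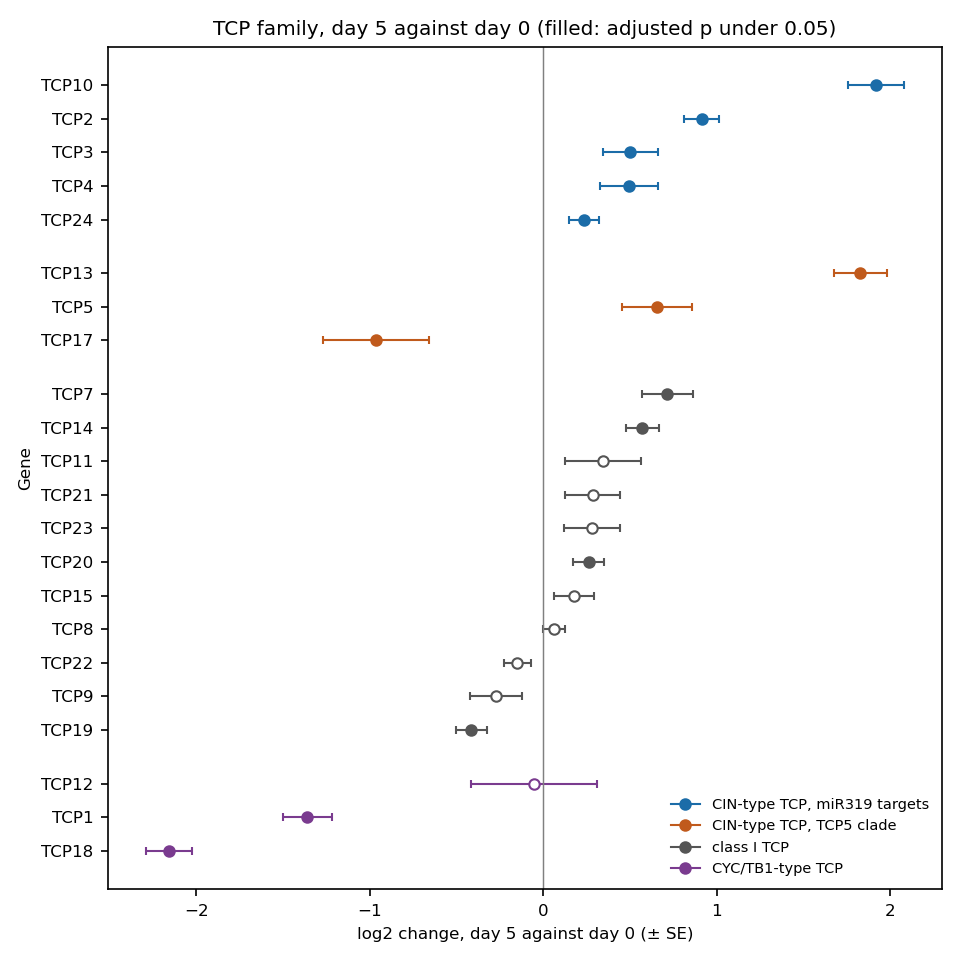
Log2 change at day 5 against day 0, with standard errors, of all 22 TCP genes with enough counts to test, by branch. Filled symbols have an adjusted p under 0.05; of CIN-type genes 7 of 8 lie right of 0, the 11 class I genes lie within 1 of 0, and TCP1 and TCP18 lie left of -1.

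On the side of regulation, primary transcripts of miR319 could not be followed. MIR319B and MIR319C had 17 and 16 counts over all 24 samples, and MIR319A was not in the count table. MYB33 and MYB65, the genes whose transcripts paired best with miR319a, were not called over the 6 days (adjusted p = 0.206 and 0.428, by edgeR). Among 11 listed repressors and cofactors of CIN-type TCPs, 7 were tested and 4 rose at day 5 against day 0, where 24.3% of all tested genes rose. Of the rest, TIE1, TIE2 and TIE3 were not in the count table, and TIE4 was too low to test. RBE, a petal zinc-finger gene known to repress TCP4 and TCP5, had the largest change. It averaged 2.28 ± 0.404 CPM at day 5 and 0.0572 ± 0.0226 CPM at day 0 (SD, n = 4 each, log2 change 5.21, SE 0.30, adjusted p = 6.65e-12). At day 1 it was already at 0.57 ± 0.162 CPM (log2 change 3.22, SE 0.35, adjusted p = 2.99e-06). Its day 0 level rests on very few counts, so both changes start near the floor of detection. The mean of RBE was highest at day 4, 3.275 ± 0.763 CPM (SD, n = 4). The corepressors TPR1, TPR3 and TPR4 rose by 0.39, 0.49 and 0.19 in log2, while TPL, TPR2 and the remodeller BRM were not called.

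Reported targets of CIN-type TCPs, a list taken from general knowledge, did not move as a block. Of 8 tested at day 5 against day 0, 4 rose (LOX2, ACS2, KNAT3 and IAA3) and 2 fell (KRP1 and HAT2), where 24.3% of all tested genes rose and 22.9% fell. LOX2, the jasmonate synthesis enzyme that TCP4 is known to activate in leaves, averaged 160 ± 38.7 CPM at day 0, 148 ± 21.8 at day 1, 108 ± 40.1 at day 2, 126 ± 56.7 at day 3, 277 ± 117 at day 4 and 883 ± 341 at day 5 (SD, n = 4 each). Its log2 change at day 5 was 2.46 (SE 0.35, adjusted p = 5.59e-06). The jasmonate synthesis list, which holds LOX2 too, had 12 of 12 members higher at day 5 against day 0. At day 1 against day 0 edgeR called none of the 12, where it called 10.1% of all tested genes. AOC1, with 24.8 ± 10.8 CPM at day 5 and 0.134 ± 0.0699 CPM at day 0, and AOC2 are near copies, so reads may have been shared between them.

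Genes that act beside CIN-type TCPs in leaves and petals went several ways. All 4 NGATHA genes, which also limit organ growth, rose at day 5 against day 0, NGA1 by 2.48 in log2 (SE 0.16, adjusted p = 4.12e-11), and NGA3, with 3.49 CPM at day 0, 1.99 at day 2 and 10.8 at day 5, dipped at day 1 (log2 change -0.64, SE 0.20, adjusted p = 0.0477). All 4 class I KNOX genes, which keep meristem cells undetermined, fell, with log2 changes from -1.199 for STM to -0.52 for KNAT6. Of the boundary genes, CUC1 rose (0.32, SE 0.09, adjusted p = 0.0047), CUC2 fell (-0.40, SE 0.07, adjusted p = 9.79e-05) and CUC3 was not called. The list of growth-regulating factors and their coactivator GIF1 had 4 of 10 higher, where 24.3% of all tested genes rose, led by GRF8 (43.9 ± 5.58 CPM at day 5, 7.90 ± 0.687 CPM at day 0), and 4 lower, where 22.9% fell, among them GIF1 (288 ± 17.5 CPM at day 5, 460 ± 27.9 CPM at day 0).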

How the data were processed

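PolyA RNA of 24 inflorescence samples, 4 at each of 6 days, was sequenced in 2 batches, giving 48 columns in the deposited table. Its values are estimated counts per gene, whole numbers as deposited by the authors. The submitters' processing notes name FastQC, Trim Galore, Salmon 0.12.0, DESeq2 and the TAIR10 build. No source used here says what each tool did or whether counting used strand. The runs of a sample differed by little more than counting noise (chi-square per degree of freedom 1.05 to 1.23, against 3.62 to 62.4 between replicates) and were summed, giving the depths stated above. Replicates are biological by their labels, and the number of plants behind each is not given. Of 23069 genes, 22915 matched RefSeq's TAIR10.1 gene table, and the other 154 were organellar.

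Genes were filtered with filterByExpr (minimum count 10, minimum total 15), which left 19747, and tested with edgeR 4.0.16 in R 4.3.3 by the quasi-likelihood F-test with TMM factors, fitting day across the 24 samples. P-values were adjusted by the Benjamini-Hochberg method over all tested genes, and SE is the absolute log2 change divided by the square root of F. Log2 levels for ratios and correlations used a prior count of 2. Alternatives were DESeq2 1.42.0, other scalings and filters, each batch alone, a replicate block, and leaving out replicates. The code was tested on simulated data. From each gene list, the 3 members with the smallest adjusted p over the 6 days were named, with members that went against their list; TCP19, TCP20, TPR4, KNAT3, IAA3, KRP1, TPL, TPR2 and BRM were named after their values were seen. The members and lists were chosen with earlier results of these data known. MiR319 pairing was scored on each gene's transcripts in TAIR10.1.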

Additional observations from a re-analysis of the deposited data

Results flagged for a closer look

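Among the 48 groups of 4 samples (8 genes on 6 days), 4 held a sample whose gap to the others, divided by the group's range, passed Dixon's 95% critical value, which chance does in about 1 of 20 groups. TCP10 had 53.4 CPM in day 3 replicate 4, where the other 3 samples of that day had 28.6 to 32.5 CPM. TCP13 had 17.2 CPM in day 5 replicate 1, where the others had 10.9 to 11.6 CPM. TCP24 had 33.5 CPM in the same library, where the others had 39.0 to 40.0 CPM. TCP17 had 1.45 CPM in day 5 replicate 2, where the others had 0.982 to 1.015 CPM. The first library also had the highest tapetum marker sum, 68.8 CPM, and day 5 replicate 1 had the highest score on principal component 3, 51.7; the part of either in these values was not tested.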

How the results depend on the processing

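No result reversed. Of 2768 tests of members under other settings, 2567 kept their side of the threshold and, outside the tests over the 6 days, which have none, their direction. Another 142 lost a call, 26 gained one, and 33 that were not called changed sign. The 2768 include tests with no call to lose in the main setting. Counts of all genes called moved by over 1.5 times as follows, and the cause was not tested unless fewer genes or samples were fitted. With genes of at least 10 CPM on average (13389 tested, without TCP5, TCP13 and TCP17), 6384 genes were called over the 6 days, 3811 at day 3 and 6167 at day 5 against day 0, 192 at day 2, 1085 at day 3, 2257 at day 4 and 5116 at day 5 against day 1, 63 at day 3, 962 at day 4 and 4138 at day 5 against day 2, and 187 at day 4 and 2336 at day 5 against day 3. DESeq2 called 583, 320 and 481 at day 2, 3 and 4 against the day before, where edgeR called 376, 172 and 286. Batch 1 alone gave 240, 90, 164 and 1392 at day 2, 3, 4 and 5 against the day before, and 1115 at day 4 against day 2. Without the 4 tapetum-high libraries, left out after seeing the data, 213, 42 and 1586 were called at day 2, 3 and 5 against the day before, and 1143 at day 3 against day 1.

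Leaving out replicates gave 6336 to 10203 calls over the 6 days. Against day 0 the range was 337 to 2128 at day 1, 2636 to 5353 at day 2, 3901 to 5888 at day 3, 4744 to 6758 at day 4 and 7324 to 9476 at day 5. Against the day before it was 82 to 402 at day 2, 5 to 194 at day 3, 36 to 339 at day 4 and 864 to 2821 at day 5. In other pairs it was 882 to 1911 (day 3 against day 1), 2303 to 3529 (day 4 against day 1), 706 to 1670 (day 4 against day 2), 5978 to 7994 (day 5 against day 1), 3947 to 6751 (day 5 against day 2) and 2183 to 4064 (day 5 against day 3). Members called ranged from 0 to 5 at day 1 and from 4 to 8 at day 5 against day 0. With library totals in place of TMM, the median log2 change of all genes at day 5 against day 1 was -0.1005, and the share of calls that were higher was 36.8%, against 53.8%; at day 5 against day 4 it was 44.2%, against 63.7%. Replicate numbers were not taken to pair the samples, since not every same-numbered pair deviated together: of 60 such pairs, 17 had a correlation of deviations over 0.1 (median 0.0455). All 6 pairs among replicate 4 of days 2 to 5 did, at 0.138 to 0.604, and 3 of those 4 libraries are tapetum-high. Of the samples, 9 of 24 correlated best with their own number. With the replicate block, 9470 genes were called over the 6 days, 1950 at day 1 and 9236 at day 5 against day 0, and 2 member calls changed, both gained. Depth limits TCP17 most, with 8 to 61 counts a sample.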
